A study of Sus scrofa with 6 samples.

Results

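The genes described here are 47 genes of mitosis and the mitotic spindle, listed by name. Of them, 26 had a probe set that the platform annotation assigns to exactly 1 symbol, out of 6765 such genes on the array. A gene with several probe sets was read from the brightest of them, by the mean over the 6 arrays. The other 21 (CDK1, TPX2, CDCA8, BUB1, BUB1B, TTK, SPC24, CENPA, CENPE, CENPK, CENPN, KIF11, KIF23, KIF2C, PRC1, ANLN, ECT2, MKI67, SMC2, NCAPG and NCAPH) had no probe set named in that way and were not analysed here.

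Levels were measured on Affymetrix porcine arrays in OBGF400, a line grown from pig olfactory bulb and labelled as neuroblasts, and in PK15, a pig kidney line that the labels call non-neuronal and epithelial and that served as the somatic background. For each line, RNA of 9 untreated cultures went into 3 pools with 1 array each, so the replicates are pools. The p-values set the difference between the lines against the spread between pools, and the spread between single cultures is not seen. OBGF400 was kept in DMEM/F12/HAM and PK15 in minimum essential medium with added amphotericin B, both with 10% bovine calf serum, penicillin, streptomycin and gentamicin, so medium and line cannot be told apart. Culture density and time since passage are not stated in the labels.

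Mitosis begins when cyclin B activates its kinase partner. Chromosomes then condense, attach through kinetochores to spindle microtubules and are held by a checkpoint until all are attached, after which the anaphase-promoting complex marks cyclin B and securin for destruction and the cell divides. Most of the transcripts concerned are made late in the cell cycle and are scarce in cells that do not divide, which is why they are widely used to read proliferation. In RNA from whole cultures, fewer dividing cells and less of a transcript per dividing cell cannot be told apart.

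All values are log2 signals as the submitters deposited them. The table has a lower limit of 2.13, called the floor here, and "at the floor" is used of a gene whose 3 values in a line all lie within 0.1 of that limit. Differences are OBGF400 minus PK15, tested with limma over all 6765 genes, and a gene is called at a Benjamini-Hochberg adjusted p under 0.05. Low signals on such arrays hold much background, so each difference was also computed after adding 32 to the linear values. Where this moved a difference by more than 1.5-fold, as it did for 13 of the 26 genes, both values are given.

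The labels were checked with markers, beside 23.9% of all genes called higher and 36.8% called lower in OBGF400. Of 8 measured neuroblast and neuron markers, 3 (NCAM1, UCHL1 and MAP2) were higher in OBGF400 (37.5%). The other 5 measured (GAP43, STMN2, ELAVL4, SNAP25 and SYT1) lay at the floor in both lines. A further 5 of the 13 listed, NES, DCX, TUBB3, SOX2 and PAX6, had no probe set of exactly 1 symbol and are not part of this check. All 8 epithelial markers were lower in OBGF400, and 10 of 11 fibroblast and mesenchymal markers were higher there (90.9%). Of 9 leukocyte markers, 3 were higher and 3 lower, at unequal differences. LAPTM5, AIF1 and SPI1 were lower, with differences of -8.75, -8.58 and -4.02 (-5.77, -5.56 and -1.699 with 32 added). Mean levels of LAPTM5 and AIF1 were 10.94 and 10.72 in PK15, against 2.18 and 2.15 in OBGF400. CD14, CD3E and TYROBP were higher, by 1.03 to 2.34 (0.58 to 1.22 with 32 added). PTPRC, CD79B and ITGB2 lay at the floor in both lines. The median level of the mitosis and spindle genes was 5.14, 7.02 and 5.68 in OBGF400 pools 1, 2 and 3, against 10.93, 10.85 and 10.84 in PK15 pools 1, 2 and 3, while the median of all genes was 7.65 to 7.72 in OBGF400 and 7.85 to 7.96 in PK15.

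Mitosis and spindle genes were lower in OBGF400. Of the 26 measured, 25 were called lower, 0 were called higher and KIF20A was not called, against 36.8% called lower and 23.9% called higher among all genes (60.8% in either direction). Scaling on the hybridization controls moved the median difference of all genes to 0.82, and values at the floor were shifted with the rest. Under it 23 members were lower, and BUB3 (0.33) and SPC25 (-0.37) were not called. KIF20A, at the floor in OBGF400, was then higher at a difference of 0.51. The median difference was -4.26 over the 26 genes (-3.75 with 32 added) and -0.002 over all genes. The 3 OBGF400 arrays lay below the 3 PK15 arrays for all 26 genes, an arrangement found for 40.1% of all genes, and 0 of the 26 showed the opposite arrangement, against 26.8%. Of the 26, 19 were called and at least 8-fold lower as deposited, against 5.71% of all genes. With 32 added, CCNA2 (-2.74), PLK1 (-2.43) and UBE2C (-2.80) of these 19 fell short of 8-fold. The share over all genes was not computed on that scale. Adjusted p-values of the 25 called genes ranged from 2.31e-05 for CCNA2 to 0.0281 for SPC25 (limma). With 3 arrays against 3, an exact permutation test of a single gene cannot give a p below 0.1.

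**Figure D1:**
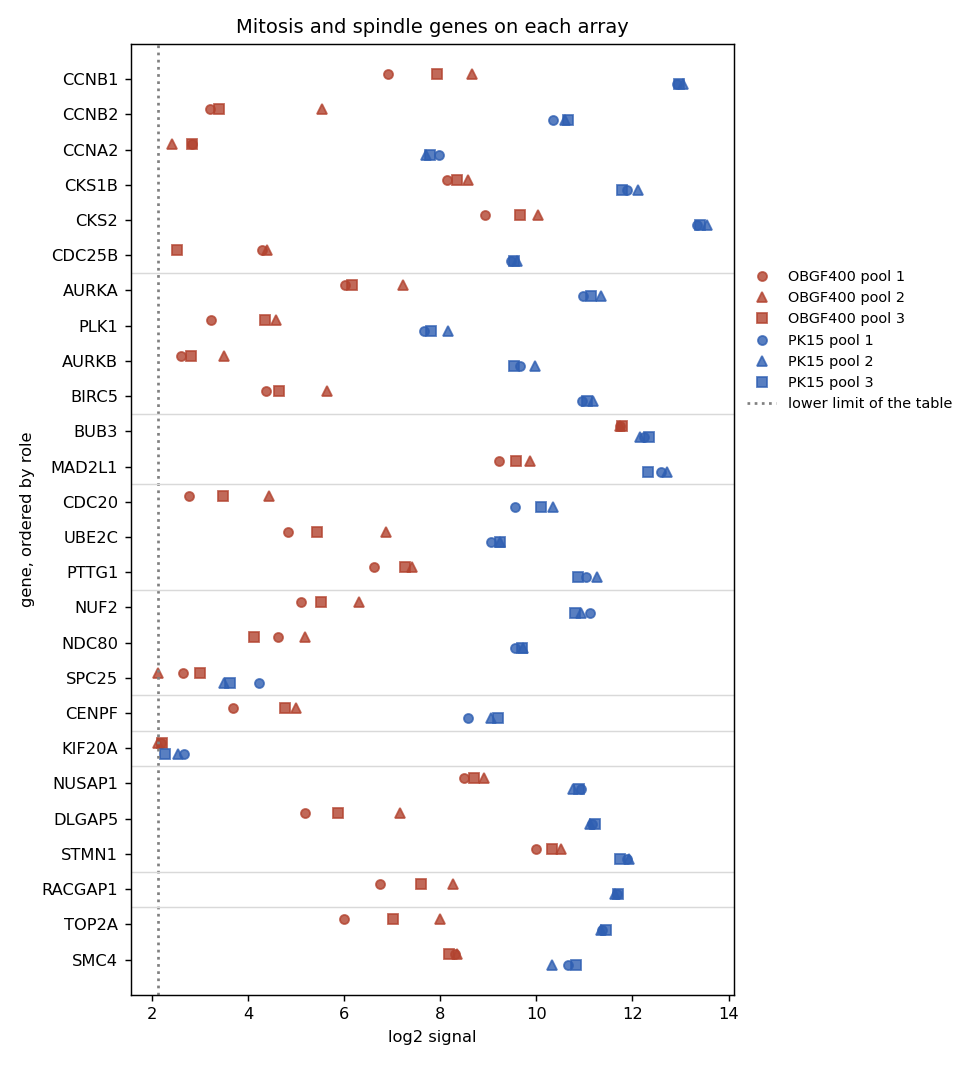
Log2 signal (horizontal axis) of the 26 measured mitosis and spindle genes (rows, ordered by role and separated by grey lines) on each array, with OBGF400 in red above PK15 in blue in each row and a marker shape for each pool. The OBGF400 points lie left of the PK15 points in every row, and for many genes they are spread more widely, with pool 2 (triangles) farthest to the right for genes such as CCNB2 and TOP2A.

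The switch into mitosis is made by cyclin B and CDK1, and 6 of the 7 listed genes of this core were measured. All 6 were lower in OBGF400. CCNB2, a B-type cyclin, had levels of 3.20, 5.54 and 3.40 in OBGF400, against 10.35, 10.60 and 10.65 in PK15. OBGF400 pool 2 stood more than 2 log2 units above the other OBGF400 pools and still far below the PK15 arrays. The difference was -6.49 ± 0.71 (SE, n = 3 per line; adjusted p = 0.00126), or -4.87 with 32 added. CCNB1, the main mitotic cyclin, was at 6.90, 8.65 and 7.94 in OBGF400, against 12.94, 13.04 and 12.97 in PK15. The groups were far apart, with a difference of -5.15 ± 0.48 (adjusted p = 0.000722). CDC25B, a phosphatase that activates the cyclin-CDK1 complex, was at 4.30, 4.39 and 2.52 in OBGF400, against 9.47, 9.59 and 9.54 in PK15. Here pool 3 was the low one, and the difference was -5.80 ± 0.58 (adjusted p = 0.000901), or -4.04 with 32 added.

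CCNA2, the cyclin of S phase and early mitosis, was at 2.84, 2.41 and 2.84 in OBGF400, close to the floor, against 7.97, 7.70 and 7.79 in PK15. Its difference was -5.13 (adjusted p = 2.31e-05), or -2.74 with 32 added. The small CDK-binding proteins CKS1B and CKS2 remained well above the floor in OBGF400. CKS1B was at 8.14, 8.57 and 8.35 in OBGF400, against 11.88, 12.12 and 11.79 in PK15, a difference of -3.58. CKS2 was at 8.92, 10.04 and 9.66 in OBGF400, against 13.35, 13.55 and 13.40 in PK15, a difference of -3.89. Adding 32 left both nearly the same, at -3.45 and -3.83.

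Aurora and Polo kinases drive centrosome maturation, spindle assembly and the correction of faulty attachments. AURKB is the kinase of the chromosomal passenger complex and BIRC5 (survivin) is a subunit of it. AURKB was at 2.60, 3.49 and 2.80 in OBGF400, against 9.67, 9.96 and 9.53 in PK15. The difference was -6.76 ± 0.28 (SE, n = 3 per line; adjusted p = 5.68e-05), the largest of the 26 as deposited, and AURKB was 108-fold lower in OBGF400, or 21.9-fold lower with 32 added. On that scale 6 members, led by BIRC5, had larger differences. BIRC5 was at 4.36, 5.65 and 4.64 in OBGF400, against 10.94, 11.18 and 11.05 in PK15. Its difference was -6.18 ± 0.37 (adjusted p = 0.000178), or -5.11 with 32 added, and here too pool 2 was the highest OBGF400 pool.

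AURKA, the Aurora kinase of centrosomes and spindle poles, was at 6.02, 7.22 and 6.15 in OBGF400, against 10.97, 11.34 and 11.14 in PK15, a difference of -4.69. Its second probe set read 6.38, 6.82 and 6.47 in OBGF400, against 10.68, 10.70 and 10.89 in PK15. The 2 probe sets thus gave like differences, -4.69 and -4.20, and the same order of the OBGF400 pools. PLK1, the Polo kinase, was at 3.22, 4.58 and 4.34 in OBGF400, against 7.65, 8.16 and 7.81 in PK15. Pool 1 was the low one, and the difference was -3.83 ± 0.42 (adjusted p = 0.00128), or -2.43 with 32 added.

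The spindle checkpoint was represented by 2 genes that behaved unequally. MAD2L1, which with its partners blocks CDC20 while kinetochores are unattached, was at 9.23, 9.86 and 9.57 in OBGF400, against 12.59, 12.72 and 12.33 in PK15. The arrays of the lines were far apart, at a difference of -2.99 ± 0.21 (SE, n = 3 per line; adjusted p = 0.000263). BUB3, a partner of the BUB kinases that also takes part in kinetochore assembly, was at 11.74, 11.74 and 11.77 in OBGF400, against 12.23, 12.16 and 12.34 in PK15. The OBGF400 pools were nearly equal, and the difference was -0.49 ± 0.05 (adjusted p = 0.000964), the smallest among the called members as deposited (with 32 added, SPC25 was smaller, at -0.27). Scaling on the hybridization controls turned it to 0.33, which was not called.

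Anaphase starts when CDC20 switches on the anaphase-promoting complex, UBE2C supplies it with ubiquitin, and PTTG1 (securin) is destroyed. CDC20 was at 2.76, 4.43 and 3.48 in OBGF400, against 9.55, 10.34 and 10.11 in PK15. The 3 OBGF400 pools differed widely among themselves, yet the difference between the lines was larger, at -6.44 ± 0.51 (SE, n = 3 per line; adjusted p = 0.000415), or -4.56 with 32 added. PTTG1 was at 6.61, 7.41 and 7.27 in OBGF400, against 11.04, 11.26 and 10.87 in PK15. Its difference was -3.96 ± 0.25 (adjusted p = 0.000216). UBE2C was at 4.83, 6.87 and 5.44 in OBGF400, against 9.05, 9.24 and 9.25 in PK15. Pool 2 was again the high one, and the difference was -3.47 ± 0.57 (adjusted p = 0.00558), or -2.80 with 32 added. A second UBE2C probe set lay at the floor on all 6 arrays and gave no call (adjusted p = 0.479 over probe sets).

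The NDC80 complex is the kinetochore's grip on the microtubule, and 3 of its 4 subunits were measured. NUF2 was at 5.11, 6.31 and 5.51 in OBGF400, against 11.12, 10.94 and 10.81 in PK15, and NDC80 itself at 4.62, 5.17 and 4.11 in OBGF400, against 9.55, 9.72 and 9.69 in PK15. These subunits, which pair along the rod of the complex, had like differences, -5.31 (-4.60 with 32 added) and -5.02 (-3.86 with 32 added). SPC25, a subunit of the inner end of the complex, was at 2.63, 2.13 and 2.99 in OBGF400, against 4.22, 3.49 and 3.62 in PK15. All 6 values were low, and the difference of -1.19 ± 0.32 (adjusted p = 0.0281) became -0.27 with 32 added. Its call was lost when any of OBGF400 pool 1 or 2 or PK15 pool 1 or 3 was left out, with adjusted p-values of 0.0784, 0.0661, 0.066 and 0.0643. CENPF, a large outer kinetochore protein that accumulates in late cell cycle, was at 3.68, 4.99 and 4.77 in OBGF400, against 8.58, 9.06 and 9.20 in PK15, a difference of -4.47 (-3.25 with 32 added).

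Of the 4 listed kinesins, KIF20A, a motor of the central spindle, was the measured one. It was at 2.19, 2.13 and 2.21 in OBGF400, which is the floor, against 2.66, 2.54 and 2.26 in PK15. Levels were low in both lines and the gene was not called (difference -0.31 ± 0.11, SE, n = 3 per line; adjusted p = 0.073), and the sign turned to 0.51 under scaling on the hybridization controls. The gene was called lower with median centring (-0.35, adjusted p = 0.046, limma), with poly-A control scaling (-1.04, adjusted p = 4.14e-07), where all 26 members were lower, and without PK15 pool 3 (-0.43, adjusted p = 0.00522).

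Among proteins that organise microtubules, DLGAP5, which stabilises spindle fibres near kinetochores, was at 5.18, 7.17 and 5.86 in OBGF400, against 11.15, 11.11 and 11.21 in PK15. The difference was -5.09 ± 0.55 (SE, n = 3 per line; adjusted p = 0.00122), or -4.50 with 32 added. Its second probe set, at 2.61, 3.19 and 2.68 in OBGF400 against 8.34, 7.57 and 8.01 in PK15, gave -5.15 and the same order of the OBGF400 pools. NUSAP1, a microtubule bundling protein of the spindle, was at 8.49, 8.91 and 8.71 in OBGF400, against 10.92, 10.76 and 10.89 in PK15, a difference of -2.15. The second NUSAP1 probe set gave -2.57. STMN1 (stathmin), which destabilises microtubules and is also abundant in immature neurons, was at 9.99, 10.52 and 10.31 in OBGF400, against 11.89, 11.94 and 11.73 in PK15. It had one of the smaller differences, -1.58 ± 0.16 (adjusted p = 0.000881).

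Cytokinesis and chromosome structure were represented by 3 genes. RACGAP1, a subunit of the centralspindlin complex that positions the cleavage furrow, was at 6.75, 8.26 and 7.60 in OBGF400, against 11.68, 11.64 and 11.71 in PK15. The PK15 pools were within 0.07 of each other while the OBGF400 pools spanned 1.52, and the difference was -4.14 ± 0.42 (SE, n = 3 per line; adjusted p = 0.000932). TOP2A, the topoisomerase that untangles sister chromosomes, was at 6.0, 7.99 and 7.02 in OBGF400, against 11.36, 11.35 and 11.44 in PK15. It showed the same contrast, a range of 1.99 in OBGF400 and 0.09 in PK15, with a difference of -4.38 ± 0.54 (adjusted p = 0.00194). SMC4, a core subunit of condensin, was at 8.31, 8.34 and 8.19 in OBGF400, against 10.65, 10.33 and 10.82 in PK15. Its probe sets gave differences of -2.32 and -2.11. The OBGF400 pools were nearly equal on this probe set, whereas the second read 6.59, 6.91 and 7.11, with pool 3 highest and pool 1 lowest.

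**Figure D2:**
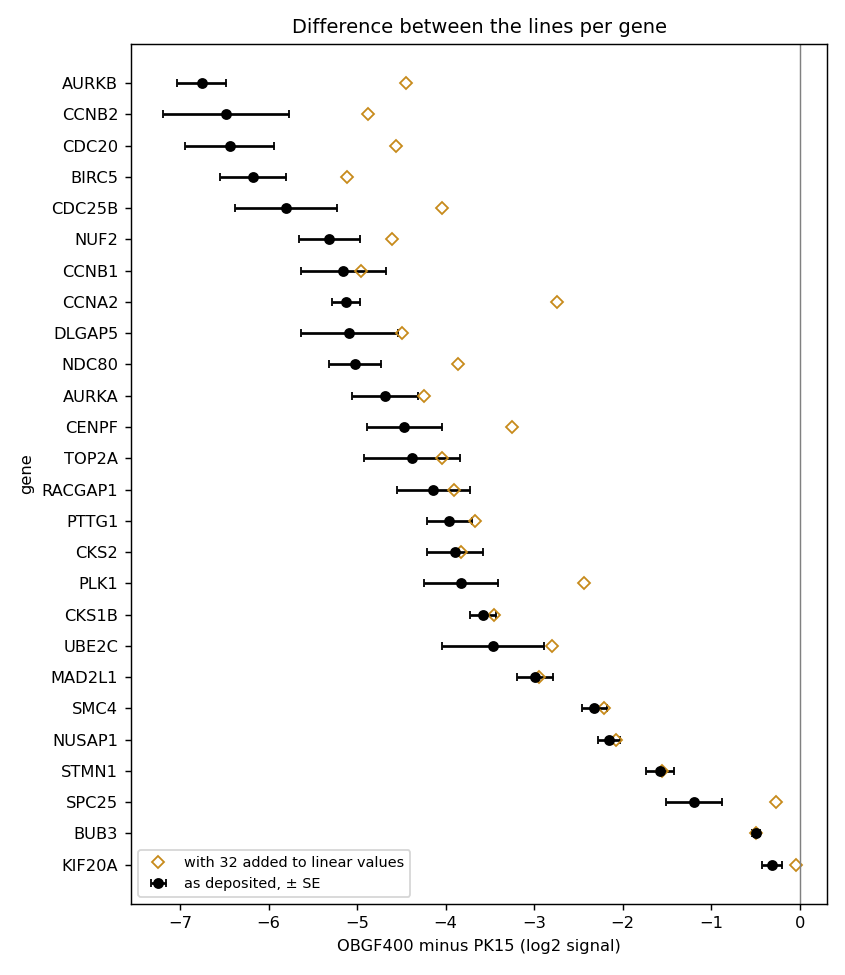
OBGF400 minus PK15 difference in log2 signal for each measured gene, sorted by size, as deposited (black, bars are the limma SE, n = 3 arrays per line) and with 32 added to the linear values (open diamonds). The differences run from -6.76 for AURKB to -0.31 for KIF20A. Adding 32 moves most the genes with a low OBGF400 and a much higher PK15 signal, such as CCNA2 at -5.13 and -2.74. KIF20A, low in both lines, moves to -0.04.

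The pools of OBGF400 were unequal for these genes. Of the 24 members above the floor on all OBGF400 arrays (KIF20A and SPC25 were not), 22 were highest in pool 2, against 36.0% of the 5385 genes above the floor there. BUB3 was highest in pool 3, and CCNA2 was lowest in pool 2. Pool 1 was the lowest for 19 of the 24, against 31.2% of genes, and pool 2 was the highest and pool 1 the lowest at once for 19, against 19.3% of genes. CDC25B, NDC80 and SMC4 were highest in pool 2 and lowest in pool 3. The median over the 24 members of a pool minus the mean of the other 2 was -0.75 for pool 1, 0.81 for pool 2 and 0.004 for pool 3, whereas over all genes these medians lay between -0.02 and 0.004. With 32 added they were -0.435, 0.382 and -0.017 over the members, smaller for pools 1 and 2 and in the same direction. Each pool is 1 array, so a difference between pools has no test.

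**Figure D3:**
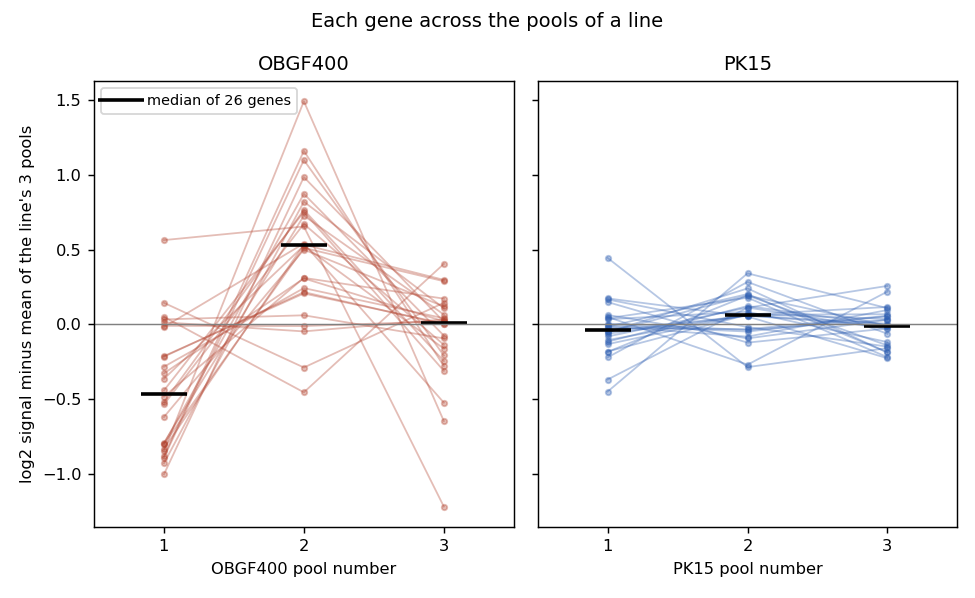
Log2 signal of each of the 26 genes minus the mean of the 3 pools of its line (vertical axis), by pool number, in OBGF400 (left) and PK15 (right). Thin lines join the values of 1 gene and black bars are medians over the 26 genes. Pool 2 stands high and pool 1 low for most genes in OBGF400, and the PK15 pools lie closer together.

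The range between the highest and lowest OBGF400 pool was at least 1 log2 unit, a 2-fold difference, for 15 of the 24 members, against 2.17% of genes, and its median was 1.20 against 0.174 over all genes. In PK15 the median range of the 26 members was 0.284 and 0 of them reached 1, against 3.09% of genes. Pool 2 exceeded pool 1 at least 2-fold for 13 members. Over all genes above the floor that share can be at most the 2.17% with a range of at least 1. As deposited, the excess was 5.05-fold for CCNB2, 4.12-fold for UBE2C, 3.97-fold for DLGAP5, 3.96-fold for TOP2A and 3.36-fold for CCNB1. With 32 added the order of these genes turned, to 2.98-fold for TOP2A, 2.86-fold for CCNB1, 2.58-fold for DLGAP5, 2.47-fold for UBE2C and 1.90-fold for CCNB2. The counts fell as well with 32 added: 6 members had a range of at least 1 log2 unit, against 0.464% of genes. In 6 members pool 2 then exceeded pool 1 at least 2-fold, against 21 of 5385 genes. Small excesses as deposited were 1.35-fold for CKS1B and 1.02-fold for SMC4. These counts rest on the brighter probe set of each gene, and the excess differed between probe sets. It was 2.29-fold for the brighter and 1.36-fold for the second of AURKA, and 3.97-fold and 1.5-fold for DLGAP5. For NUSAP1 it was 1.34-fold and 2.85-fold, and for SMC4 1.02-fold and 1.25-fold.

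The spread between pools varied with signal level, so the members were set beside all genes of the same mean OBGF400 level. Between levels of 4 and 6, the 7 members had a median SD of 0.702 across OBGF400 pools, against 0.198 for the 536 genes there. Between 6 and 8, the 6 members had 0.820, against 0.136 for 1051 genes, and all 6 were highest in pool 2, against 38.8%. Between 8 and 10, the 5 members had 0.216, against 0.093 for 1534 genes, and all 5 were highest in pool 2, against 37.5%. From the floor to 4, the 4 members had 0.652, against 0.069 for 626 genes, and 3 were highest in pool 2, against 25.7%. Above 10, the 2 members had 0.142, against 0.067 for 1638 genes, and 1 was highest in pool 2, against 37.5%. The members' median spread thus exceeded that of genes of like level in each of these ranges.

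Array controls and markers of other cell types were set beside the order of the pools. With each array scaled on the hybridization controls, 22 of the 24 members were highest in pool 2, and 21 were when the poly-A spike-ins dap and thr set the scale. The 3′ minus 5′ signal of GAPDH was 0.19, 0.17 and 0.22 in OBGF400 pools 1, 2 and 3, against 0.13, 0.03 and 0.24 in PK15 pools 1, 2 and 3, and that of actin was -0.19, -0.22 and -0.12 in OBGF400, against 0.47 to 0.53 in PK15. The 28S rRNA probe set read 10.59, 10.61 and 10.53 in OBGF400, against 9.28, 9.41 and 8.25 in PK15, so the lines were apart and PK15 pool 3 was the lowest. The log2 of the summed signal of the 8 epithelial markers, abundant in PK15, was 5.44, 5.53 and 5.57 in OBGF400 pools 1, 2 and 3, against 16.31 to 16.35 in PK15. Of the 8, 5 were above the floor on all OBGF400 arrays, and 2 of these, KRT8 (2.70, 2.79 and 2.39) and OCLN (2.87, 3.12 and 2.97), were highest in pool 2. KRT18, KRT19 and DSP were at the floor in OBGF400 and give no order of pools. The summed level of the 11 fibroblast and mesenchymal markers was 16.59, 16.64 and 16.66 in the same pools, against 9.58 to 10.25 in PK15. That of the 8 neuroblast and neuron markers was 12.66, 12.61 and 12.52, against 5.42 to 5.56 in PK15. UCHL1 alone, at 12.39, 12.37 and 12.26, made up most of this OBGF400 sum, and 5 of the 8 were at the floor in both lines. The part of these controls and markers in the order of the pools, or in the difference between the lines, was not tested.

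Genes of neighbouring steps, listed by function, were set beside the members. Of 21 further mitosis genes, 17 were lower in OBGF400 (81.0%, against 36.8% of all genes), 0 were higher (against 23.9%) and 4 missed the threshold. The median difference of the 21 was -2.16. Under scaling on the hybridization controls 14 of them were lower and 4 higher, beside 1259 lower and 4487 higher of all 6765 genes. The centrosome kinase NEK2 had the largest difference as deposited, with 2.41, 2.93 and 2.69 in OBGF400 against 9.49, 9.54 and 9.44 in PK15 (-6.82, or -4.29 with 32 added; adjusted p = 7.68e-06). CDCA3, a trigger of mitotic entry, differed by -6.53 (-4.15 with 32 added) and the abscission factor CEP55 by -6.42 (-4.80 with 32 added, then larger than that of NEK2). The uncalled genes were KIFC1, FOXM1, CDC25C and DSN1, of which DSN1 was at 6.43, 6.96 and 6.59 in OBGF400 against 6.38, 6.07 and 6.43 in PK15 and the others lay at or near the floor. Hybridization control scaling shifts floor values too, and KIFC1, CDC25C and FOXM1 then stood at 0.823, 0.795 and 0.603, beside 1.192 for DSN1. Such counts thus hold floor genes. Of all genes, 1047 were at the floor in both lines.

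The core of the anaphase-promoting complex, which CDC20 activates and UBE2C serves, was mostly lower in OBGF400 too. Of 9 measured subunits, 7 were lower in OBGF400 (77.8%, against 36.8% of all genes) and 2 were higher (22.2%, against 23.9%). The median difference was -1.38. ANAPC16 (-1.84), ANAPC13 (-1.69) and ANAPC1 (-1.65) had the largest falls. CDC23 was higher by 0.64 and ANAPC2 by 0.18, differences that became -0.09 and -0.55 under poly-A control scaling. Cohesin, which holds sister chromatids together until anaphase, was represented by 3 genes. The ring subunit RAD21 (-1.22) and the release factor WAPL (-0.93) were lower, and the loader NIPBL was higher (1.59). Under scaling on the hybridization controls 0 of these 3 were lower, beside 1259 of all 6765 genes.

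Genes of DNA replication, the step that precedes mitosis, were mostly lower in OBGF400 as well. Of 25 such genes, 18 were lower (72.0%, against 36.8% of all genes), 0 were higher (against 23.9%) and 7 missed the threshold. The median difference of the 25 was -1.15. Under scaling on the hybridization controls 8 of them were lower and 4 higher, beside 1259 lower and 4487 higher of all 6765 genes. The median of the 25 was then -0.33, against 0.82 over all genes. The polymerase subunit POLD2 (-4.37, or -2.15 with 32 added), the single-strand binding subunit RPA2 (-3.70) and the clamp loader subunit RFC3 (-2.88) had the largest falls. The uncalled genes were MCM5, TYMS, GMNN, GINS3, GINS4, ORC1 and CHAF1A. TYMS, the thymidylate synthase, was at 9.08, 9.56 and 9.31 in OBGF400, against 8.96, 8.93 and 8.69 in PK15 (0.46 ± 0.15, SE, n = 3 per line; adjusted p = 0.0582). The difference between the mitosis and the replication lists was not tested.

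The replication genes showed the same order of pools as the mitosis and spindle genes. Of the 25, 23 were highest in OBGF400 pool 2 (92.0%, against 36.0% of all genes) and 22 lowest in pool 1 (88.0%, against 31.2%). The median of a pool minus the other 2 was -0.50 for pool 1 and 0.48 for pool 2 (-0.39 and 0.42 with 32 added). ORC1, a subunit of the origin recognition complex, was at 6.44, 7.91 and 7.24 in the OBGF400 pools, and GINS4, a subunit of the replicative helicase, at 7.11, 8.41 and 7.75. The further mitosis genes showed it too, with 16 of 18 above the floor highest in pool 2 (88.9%), at medians of -0.40 for pool 1 and 0.43 for pool 2 (-0.13 and 0.21 with 32 added). Of the 9 genes of the anaphase-promoting complex, 7 were highest in pool 2 (77.8%) and 4 lowest in pool 1 (44.4%). Their medians were -0.022 for pool 1 and 0.131 for pool 2. In PK15, 13 of the 26 mitosis and spindle genes and 9 of the 25 replication genes were highest in pool 2, against 42.7% of genes.

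**Figure D4:**
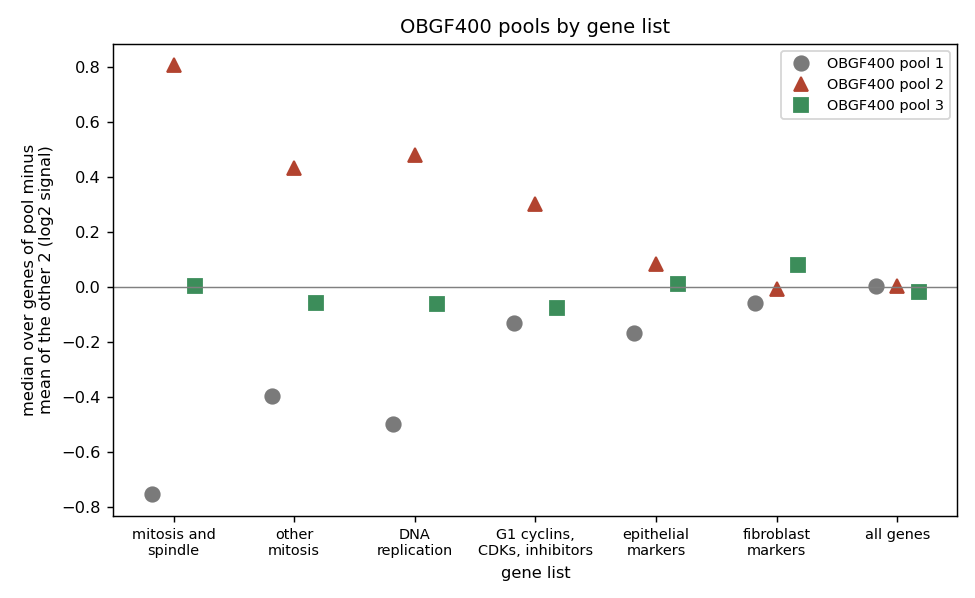
For each gene list (horizontal axis), the median over its genes of 1 OBGF400 pool minus the mean of the other 2 pools (log2 signal as deposited), over genes above the floor on all OBGF400 arrays. Pool 2 is high and pool 1 low for mitosis and spindle genes (0.81 and -0.75), for further mitosis genes (0.43 and -0.40) and for replication genes (0.48 and -0.50), and all pools are near 0 for all genes. G1 regulators have the same direction, at 0.302 for pool 2 and -0.132 for pool 1. The values are 0.083 and -0.165 for epithelial markers, and -0.007 and -0.058 for fibroblast and mesenchymal markers.

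Of 9 upstream regulators of the G1 phase, 3 were lower (33.3%, against 36.8% of all genes), 2 were higher (22.2%, against 23.9%) and 4 missed the threshold, shares near those of all genes. The counts turned with the scaling, at 2 lower and 6 higher with hybridization control scaling and 7 lower and 1 higher with poly-A control scaling. Those of all 6765 genes turned too, at 1259 lower and 4487 higher with the first and 5100 and 843 with the second. The median difference of the 9 was -0.04 as deposited, 0.78 and -0.77 under these scalings. CDKN1B (p27), an inhibitor of cyclin-dependent kinases that is abundant in resting cells, was at 11.84, 11.56 and 11.65 in OBGF400, against 9.86, 9.52 and 9.60 in PK15. It was higher in OBGF400 by 2.02 ± 0.13 (SE, n = 3 per line; adjusted p = 0.000196), and pool 2 was its lowest OBGF400 pool. The related inhibitor CDKN1A (p21) was at 10.42, 10.79 and 10.67 in OBGF400, against 9.67, 9.75 and 10.04 in PK15, a difference of 0.80. With poly-A control scaling this rise shrank to 0.07. CDKN3, a phosphatase of CDK complexes (-3.06), RBL2, a pocket protein of resting cells (-1.36), and CDKN2C (-1.16) were lower. CDK2, CCND2 and E2F3, at differences of -0.04, -0.30 and 0.12, were not called, and CDKN2B was at the floor in both lines. The shift of the scaling alone moved CDKN2B to 0.82 with hybridization and -0.73 with poly-A controls. Of the 8 G1 genes above the floor in OBGF400, 5 were highest in pool 2 (62.5%, against 36.0% of all genes). CDKN1A, CDKN2C and CDKN3 were among these 5, unlike CDKN1B.

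**Figure D5:**
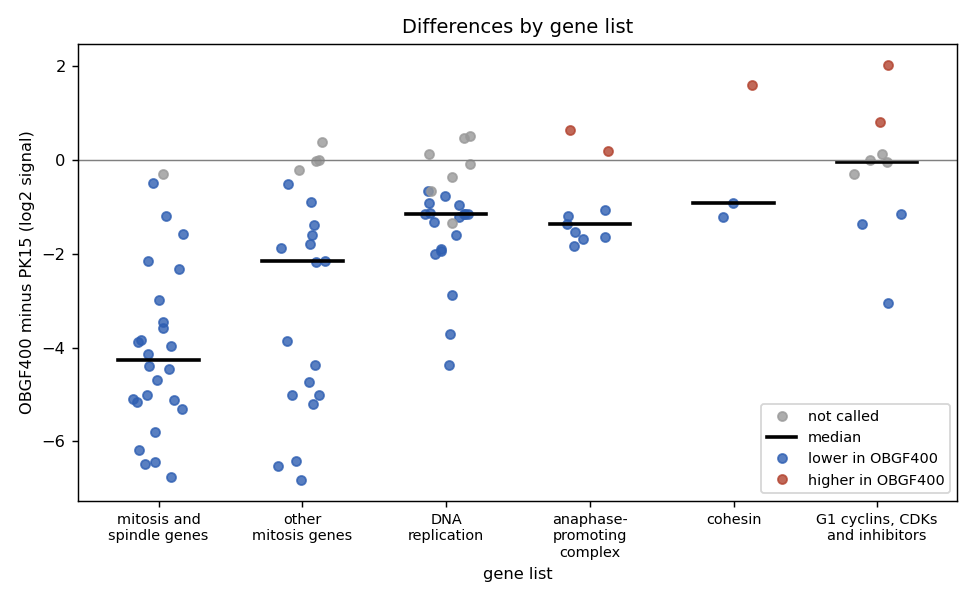
OBGF400 minus PK15 difference in log2 signal (vertical axis) of each measured gene of 6 lists (horizontal axis), coloured by the limma call at an adjusted p under 0.05, with the median of each list as a black bar. The median is -4.26 for mitosis and spindle genes, -2.16 for further mitosis genes, -1.15 for replication genes and -0.04 for G1 regulators.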

How the data were processed

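The authors deposited log2 signals, 1 value for each probe set on each array. The Bioconductor package affy is named in the submitters' processing notes, without a version, and how signals were background-corrected, summarised and normalized is not given in the sources used here. Of 24123 probe sets, 124 controls were left out and 23999 tested. By the platform annotation, 10069 had 1 symbol, 198 several and 13732 none. From the values, limma 3.58.1 in R 4.3.3 (lmFit and eBayes, no covariate, two-sided) compared the lines over the 6765 genes, with Benjamini-Hochberg adjustment. The fit was tested on simulated data. Tables were made in Python 3.11.15. Probe-set calls quoted for second probe sets come from a fit over all tested probe sets, of which 21.7% were called lower in OBGF400.

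The members, lists and tests were chosen with earlier results of these data known. All measured members are named, and in each other list at most 3 called genes per direction, those that moved most. Uncalled genes of those lists, ORC1 and GINS4 among them, were picked after their values were seen. Alternatives were other scalings, 32 added to linear values, filters on low signals, other choices of probe set, array weights, a threshold of 0.01, a replicate block and leaving out each array. No sequence is shown, since no sequence table was used here. The number of arrays limits the precision.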

Additional observations from a re-analysis of the deposited data

How the results depend on the processing

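Under 19 alternatives, 22 of the 26 genes kept their direction and their call in each one run, and the exceptions were SPC25, KIF20A, BUB3 and UBE2C. Scaling on the hybridization controls moved the median difference of all genes to 0.82 and that of the members to -3.44, with 1 member higher in OBGF400, and turned KIF20A to 0.51 and BUB3 to 0.33. Poly-A control scaling (dap and thr) moved the 2 medians to -0.73 and -4.99, and there the pool 3 deviation was -0.17. With 32 added the deviations of pools 1, 2 and 3 were -0.435, 0.382 and -0.017, against -0.752, 0.805 and 0.004 as deposited, and 6 members had an OBGF400 range of at least 1 log2 unit (15 as deposited) and 6 were at least 2-fold higher in pool 2 than in pool 1 (13 as deposited). KIF20A was called lower, making 26, with median centring (-0.35) and with poly-A control scaling (-1.04). Among all genes 2492 were lower and 1620 higher as deposited, 1259 and 4487 with hybridization control scaling, and 5100 and 843 with poly-A control scaling. The control scalings shifted values at the floor as well, where 1047 genes lay in both lines and KIF20A lay in OBGF400. Leaving out each array gave 24 to 25 members lower, 0 higher and a median of -4.61 to -3.81. The replicate block gave 24 lower and 0 higher, losing SPC25 (adjusted p = 0.0509). Deviations of same-numbered pools from their line means correlated at 0.035, -0.013 and 0.023 over 5280 genes, so the numbers were not taken to pair the pools. SPC25 was also lost with array weights, at a threshold of 0.01 and with hybridization control scaling, and UBE2C with its dimmer probe set. The counts of members highest in pool 2 (20 to 22) and lowest in pool 1 (16 to 21) under other settings, and those with 32 added of range and of pool 2 over pool 1, were added after the data had been seen. The cause of these changes was not tested.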
